A study of Mus musculus with 4 samples.

Results

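The 36 genes described here encode proteins that copy DNA or prepare a cell to copy it, chosen by symbol out of 32285 genes with a row in each library. All 36 symbols were found, each in 1 row. They were followed in invariant natural killer T (iNKT) cells, a lineage of T cells with a nearly fixed T cell receptor that recognises lipids on CD1d. Thymic cells of mice aged 6 to 8 weeks were enriched magnetically and sorted for CD3 and CD1d tetramer staining (CD3+ CD1d tetramer+), giving 2 WT libraries and 2 libraries of mice without ACC1 (ACC1 KO), the enzyme encoded by Acaca that supplies malonyl-CoA to build fatty acids. Which part of Acaca was deleted, in which strain and by which driver, and whether a library is 1 animal or a pool, was not given in the sources used here, so that p-values measure the spread between these libraries, which may be technical. The question addressed is whether the replication genes differ between the genotypes, and how many cells hold their transcripts.

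DNA replication starts at origins, where Cdc6 and Cdt1 load the Mcm2 to Mcm7 helicase in G1 and Gmnn later blocks a second loading. Cdc45, the GINS complex and Mcm10 then turn the helicase on, and polymerases, clamp, clamp loader and ligase copy both strands while nucleotide synthesis and chromatin copying run alongside. Most of these genes are transcribed at the border of G1 and S phase under E2F factors, and in the thymus iNKT cells are known to divide early after selection and to stop dividing as they mature into iNKT1 cells. By role, 9 members load or guard the helicase at origins (Mcm2 to Mcm7, Cdc6, Cdt1, Gmnn), 3 activate it (Mcm10, Cdc45, Gins2), 11 work at the fork (Pcna, Pclaf, Rfc2, Rfc4, Rpa2, Prim1, Pola1, Pole, Pold3, Lig1, Fen1), 5 copy chromatin (Hells, Uhrf1, Dnmt1, Chaf1b, Slbp), 5 make or guard nucleotides (Tyms, Rrm1, Rrm2, Tk1, Ung) and 3 control the step from G1 to S (E2f1, Ccne1, Ccne2).

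E2F sites are shown first because they are a feature that the choice of genes by name did not use, though one that other replication and cell cycle genes share. RefSeq promoter windows on mm10, from 250 bases before to 50 bases after an annotated start, matched 30 of the 36 members in 37 windows. An E2F octamer (TTTCCCGC, TTTCGCGC, TTTGCCGC or TTTGGCGC on either strand, where matches on opposite strands may overlap) was found in 13 of the 37 windows (35.1%), in 13 genes, against 2.26% of all 32851 windows. Other genes of like function varied. The share was much the same at 37.5% of 24 windows for E2F and G1 control genes and 31.7% of 41 for other origin and fork genes. It was 22.2% of 9 windows for other chromatin and nucleotide genes, and lower, at 8.33% of 12 windows, for replication checkpoint genes. CCAAT on either strand was in 54.1% of the members' windows and 37.4% of all windows, and the CHR element TTTGAA, on either strand, was in 10.8% and 17.9%. In the windows of 26 mitosis genes, named below, the order was the reverse, with TTTGAA in 77.8% and the E2F octamer in 3.70%. A match is a stretch of letters and says nothing on binding. The 30 bases around 1 match are given for 5 members, 5′ to 3′ on the gene's strand, with the matched octamer in capitals:
Cdc6 at chr11:98908002-98908031: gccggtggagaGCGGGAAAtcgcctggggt
Mcm7 at chr5:138172030-138172059: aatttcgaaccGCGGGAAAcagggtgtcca
Pclaf at chr9:65890307-65890336: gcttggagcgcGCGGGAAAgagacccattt
Hells at chr19:38930917-38930946: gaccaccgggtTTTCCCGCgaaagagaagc
Uhrf1 at chr17:56304117-56304146: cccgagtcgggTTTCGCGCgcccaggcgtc

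Counted from the window's annotated start at 0, the match began at -138 in Cdc6, -165 in Mcm7, -5 in Pclaf, -62 in Hells and -185 in Uhrf1. The windows of Cdc6, Mcm7 and Uhrf1 lie within the annotated span of the gene, as do the bases printed for Pclaf and Hells. Mcm7 and Uhrf1 each had 2 windows, of which 1 is shown. In Mcm5 and Mcm6 matches on both strands overlapped, so that the capitals run over 12 letters. Mcm5 had 2 matches, Mcm6 3 and Pola1 1. Their 250 bases before the start, which overlap no annotated exon, were as follows on the gene's strand:
Mcm5 at chr8:75109259-75109508: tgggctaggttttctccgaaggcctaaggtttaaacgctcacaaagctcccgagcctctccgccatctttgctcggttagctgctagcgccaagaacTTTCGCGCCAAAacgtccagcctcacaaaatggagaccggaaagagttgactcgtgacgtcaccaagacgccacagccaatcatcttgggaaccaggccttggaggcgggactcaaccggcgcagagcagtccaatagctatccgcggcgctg
Mcm6 at chr1:128359706-128359955: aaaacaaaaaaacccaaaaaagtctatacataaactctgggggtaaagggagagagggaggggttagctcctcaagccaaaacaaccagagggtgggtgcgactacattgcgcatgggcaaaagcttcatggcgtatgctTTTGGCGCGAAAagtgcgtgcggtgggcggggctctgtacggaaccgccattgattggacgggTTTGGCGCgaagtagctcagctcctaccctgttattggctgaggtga
Pola1 at chrX:93632156-93632405: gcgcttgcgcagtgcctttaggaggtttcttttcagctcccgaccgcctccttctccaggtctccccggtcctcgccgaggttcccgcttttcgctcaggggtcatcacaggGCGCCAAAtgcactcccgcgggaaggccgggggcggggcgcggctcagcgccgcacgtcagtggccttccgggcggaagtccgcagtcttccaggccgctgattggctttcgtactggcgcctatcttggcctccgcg

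The members Mcm4, Gmnn, Gins2, Rfc2, Pole and Ccne2 had no entry. Mcm10, Cdc45, Rrm2, Tyms, Tk1, Pcna and E2f1 had an entry with none of the 4 octamers in it.

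The 4 libraries held 5499 to 9927 barcodes, read as unique molecular identifiers (UMIs, 1 for each captured transcript). The cells kept as iNKT cells numbered 4615 in WT 1, 9016 in WT 2, 5592 in ACC1 KO 1 and 7795 in ACC1 KO 2, with 23543829, 62861788, 28380551 and 65043559 UMIs. Depth and sex go with the number in the labels: the median cell held 4646 and 4470 UMIs in the number 1 libraries and 6192 and 7304 in the number 2 libraries, and Xist lay under 1 CPM (a gene's UMIs in every 1000000 of the summed cells) in both number 1 libraries and at 585 and 649 CPM in the number 2 libraries. For this reason fold changes within number 1 and within number 2 accompany the main medians. Acaca was at 34.5 and 31.8 CPM in WT and 47.3 and 60.8 CPM in ACC1 KO, higher and not lower in both libraries labelled ACC1 KO. Whether these 3′ tags lie in the deleted part was not given, so that the values cannot check the genotype, and the groups are named by their labels throughout. Zbtb16, the transcription factor that defines innate-like T cells, lay at 189 to 295 CPM, and 10 to 27 cell barcodes were shared by a pair of libraries. In the cells later called cycling, Rag1, which defines cortical thymocytes, was at 0 in all 4 libraries, against 451 to 941 CPM in the thymocyte clusters that were left out, and the 10 thymocyte markers summed to 57.8 to 75.1 CPM against 4389 to 8467. In the same cycling cells the 9 B cell markers summed to 146 CPM in WT 1 and to 48.6 to 78.9 CPM in the other libraries.

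The members marked a small set of cells. In resting iNKT1-like cells, 21651 cells of mature phenotype marked by genes such as Nkg7 and Il2rb, a UMI of Mcm10 was found in 0.0231% of cells thinned to 2000 UMIs, of Cdc6 in 0.0601%, of Pclaf in 0.18% and of Rrm2 in 0.24%. The same genes were found in 5.12%, 7.91%, 76.3% and 47.9% of the 215 cycling iNKT2-like cells. In resting B cells Mcm10 was in 0.573% (2 of 349 cells) and Pclaf in 0.287% (1 of 349), too few cells to measure the background of such low shares. Other members were widespread at rest: Slbp, which binds the end of histone mRNAs, was in 20.1% of resting iNKT1-like cells, Pcna, the sliding clamp, in 16.8%, and Mcm6 in 9.58%. Cells were clustered without the members, yet on genes that move with them, so that levels between classes are a description and carry no test.

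A cell with a UMI of at least 5 different members at 2000 UMIs is called replicating here. The name is a label only, since a cell may reach 5 through members that are widespread at rest. How often that happened was not tested. Replicating cells made up 1.57% of resting iNKT1-like cells, 1.24% of interferon-responding cells, 2.79% of iNKT17-like and 4.12% of iNKT0-like cells. They were 16% of iNKT2-like cells, the class marked by Zbtb16, Plac8 and Il4. The iNKT2-like class held 2 clusters, with 20.8% in the one led by Igfbp4 and Tesc and 4.15% in the one with Il4 and Izumo1r among its top genes. Of the classes set apart by division, a cluster led by Hells, Mcm3, Mcm5, Ung, Lig1 and E2f1 themselves held 65.3%, cycling iNKT1-like cells 61.2% and cycling iNKT2-like cells 80.9%. The dividing classes were deeper, at a median of 10795, 13227 and 21590 UMIs per cell in that order, which is why all shares are given after thinning. The B cell cluster called resting here gave 0.573% (2 of 349 cells), at a median of 3501 UMIs against 5851 in iNKT cells. Another B cell cluster, of 109 cells all from WT 1, gave 41.3%. The low share in the cluster called resting is therefore no independent control.

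The classes set apart by division differed in which members they held. The member-led cluster was named for at least 3 members among its 10 top genes, and the cycling classes for mitosis markers. Differences between them follow in part from these rules, so that the shares are a description and carry no test. Ung, which removes uracil from DNA, was found in 14.4% of the member-led cluster and in 2.88% and 6.98% of the cycling iNKT1-like and iNKT2-like cells. Mcm6 and Mcm2 were also found in more cells of the member-led cluster (38.4% and 18.7%) than of either cycling class (24.7% and 29.3% for Mcm6, 9.62% and 14.0% for Mcm2). Rrm2, the small subunit of ribonucleotide reductase, went the other way, with 5.11% in the member-led cluster, 30.8% in cycling iNKT1-like and 47.9% in cycling iNKT2-like cells. Tk1, which salvages thymidine, was in 5.11%, 16.7% and 26.5%, and Pclaf, a small partner of Pcna, in 19.1%, 55.1% and 76.3%.

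Over all iNKT cells, 34 of the 36 members had a fold change above 0 in ACC1 KO over WT, with a median of 0.28 on the log2 scale against -0.01 for all 14703 genes tested. No member passed an adjusted p of 0.05 in the edgeR quasi-likelihood test, in which 1 gene (Scd1, 0.00680% of genes) passed. That test had no term for the number in the labels, and calls with such a term are given at the end. At an unadjusted p under 0.05 there were 6 members, against 5.03% of genes tested, and DESeq2 called 0 members and 108 genes (0.735%). Both ACC1 KO libraries were above both WT libraries in CPM for 17 members and below both for 1, Rfc2, against 11.3% and 19.6% of all genes. The median was 0.44 within the number 1 libraries and 0.14 within the number 2 libraries, 0.14 without WT 1 and 0.50 without WT 2. With every library given the same mix of iNKT classes it was -0.22, with 0 members higher and 24 lower without overlap, against 7.24% and 21.9% of the 13082 genes then tested. That mix covered the classes set apart by division too, among them the cluster led by members. It fixes the share of dividing cells, so that it cannot show a difference in that share. In bulk sums such as these, fewer cells that hold a gene and less RNA per cell cannot be told apart.

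**Figure D1:**
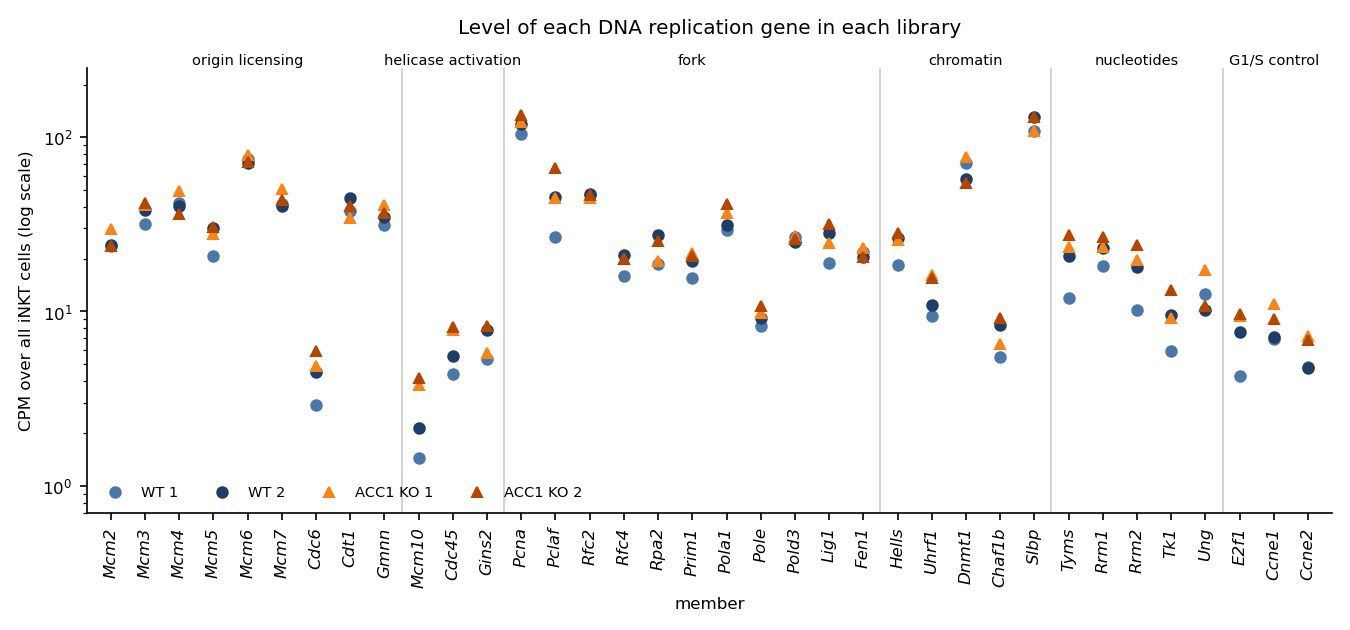
Level of each of the 36 members in each library, as CPM over all iNKT cells on a log axis, with circles for WT and triangles for ACC1 KO, grouped by role. WT 1 is the lowest library for most members, and both triangles lie above both circles for 17 members, among them Mcm10, Cdc45, Uhrf1, Ccne1 and Ccne2.

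Among the members that activate the helicase, Mcm10, which helps the helicase leave the origin, was at 1.44 and 2.15 CPM in WT 1 and WT 2 and at 3.81 and 4.14 CPM in ACC1 KO 1 and 2. The groups did not overlap, and the log2 fold change of 1.16 ± 0.30 (SE) had an adjusted p of 0.745 in the edgeR quasi-likelihood test. Cdc45, a helicase subunit, was at 4.37 and 5.55 CPM in WT and 7.86 and 8.12 CPM in ACC1 KO, again without overlap, for a log2 fold change of 0.72 ± 0.22 and an adjusted p of 0.816 in the same test. Gins2, of the GINS complex, was low in both number 1 libraries (5.35 and 5.74 CPM) and high in both number 2 libraries (7.86 and 8.27 CPM), so that the genotypes overlapped.

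Of the members that load the helicase, Cdc6 was at 2.89 and 4.52 CPM in WT and 4.86 and 5.97 CPM in ACC1 KO, without overlap (log2 fold change 0.57 ± 0.31). Mcm7 was at 41.2 and 40.2 CPM in WT and at 50.7 and 43.5 CPM in ACC1 KO, without overlap and with most of its difference in ACC1 KO 1. Mcm6 overlapped, at 75 and 70.8 CPM in WT against 78.6 and 72.3 CPM in ACC1 KO. Mcm3 and Gmnn were the other members of this role without overlap, and Cdt1, at 37.5 and 44.8 CPM in WT and 34.3 and 40.4 CPM in ACC1 KO, was 1 of 2 members with a fold change below 0. The loaders thus held members on both sides, with a median of 0.23 over the 9. Of the 9, 4 were higher without overlap, against 11.3% of all genes.

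At the fork, Pclaf was at 26.7 and 45.5 CPM in WT and 45.1 and 66.6 CPM in ACC1 KO, where ACC1 KO 1 lay just under WT 2 (log2 fold change 0.67 ± 0.34). Pola1, the catalytic subunit of the polymerase that primes synthesis, was at 29.4 and 31.3 CPM in WT and 36.5 and 41.5 CPM in ACC1 KO, without overlap (0.41 ± 0.15, adjusted p 0.975 in the edgeR quasi-likelihood test). Its fold change was nearly the same within number 1 (0.40) and number 2 (0.42), unlike that of most members. Pcna was at 104 and 119 CPM in WT and at 122 and 134 CPM in ACC1 KO, without overlap. Rfc2, of the clamp loader, varied little, at 46.7 and 47.2 CPM in WT and 44.8 and 46.4 CPM in ACC1 KO. Its fold change is 0.00 ± 0.13 after TMM scaling, which differs from scaling by total UMIs, so that no direction is given. Pole and Prim1 were the other fork members higher without overlap, while Rpa2 was at 18.8 and 27.4 CPM in WT and at 19.6 and 25.3 CPM in ACC1 KO.

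Of the chromatin members, Uhrf1, which brings the maintenance methylase Dnmt1 to newly copied DNA, had the smallest unadjusted p of all 36, with 9.43 and 10.9 CPM in WT and 16.2 and 15.5 CPM in ACC1 KO. The ACC1 KO libraries lay well apart from the WT ones, but the log2 fold change of 0.68 ± 0.17 had an adjusted p of 0.696 in the edgeR quasi-likelihood test. Dnmt1 itself followed the number and not the genotype, at 70.8 and 57.9 CPM in WT and 76.7 and 54.7 CPM in ACC1 KO. Slbp did so in the opposite direction, with 108 and 131 CPM in WT and 109 and 130 CPM in ACC1 KO.

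Of the nucleotide members, Tyms, which makes thymidylate, was at 12 and 20.8 CPM in WT and 23.4 and 27.5 CPM in ACC1 KO. Rrm2 was at 10.2 and 18.0 CPM in WT and 19.6 and 24.1 CPM in ACC1 KO, and Rrm1, its large partner, at 18.2 and 23.3 CPM in WT and 23.3 and 26.7 CPM in ACC1 KO. In all 3 the groups did not overlap, by a narrow margin for Rrm1, and WT 1 was the lowest library. Of all genes, 11.3% were higher without overlap. Their log2 fold changes were 0.66 ± 0.31, 0.66 ± 0.32 and 0.31 ± 0.20.

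The 3 members that control the step to S phase were higher without overlap, as were 11.3% of all genes. E2f1, a factor that drives many members, was at 4.25 and 7.62 CPM in WT and at 9.41 and 9.72 CPM in ACC1 KO. Ccne1 and Ccne2 are the E cyclins that activate Cdk2. Ccne1 was at 6.97 and 7.14 CPM in WT and at 11 and 9.09 CPM in ACC1 KO, and Ccne2 at 4.80 and 4.76 CPM in WT and at 7.22 and 6.86 CPM in ACC1 KO. Their log2 fold changes of 0.55 ± 0.18 and 0.60 ± 0.18 had adjusted p of 0.864 and 0.793 in the edgeR quasi-likelihood test.

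Cells with a UMI were then counted, with every cell thinned to 2000 UMIs, and each member's level was split into the share of such cells and the UMIs that each of them held. The median share part was 0.15 on the log2 scale and the median level part 0.01. Nearly every positive cell held 1 UMI at this depth, which keeps the level part near 0, so that the split does not show where a difference lies. The share was higher in both ACC1 KO libraries than in both WT libraries for 15 members and lower for 1, Rfc2, against 11.2% and 18.6% of the 14703 genes. At an equal mix of iNKT classes in each library, those set apart by division included, the median share part was -0.10, and 8 members lay above 0 against 30 before. For Uhrf1 the share was 0.676% and 1.0% in WT and 1.58% and 1.35% in ACC1 KO (share part 0.83), while a positive cell held 1.29 and 1.11 UMIs in WT and 1.17 and 1.16 UMIs in ACC1 KO (level part -0.04). For Rrm2 the share was 0.545% and 1.01% in WT and 1.43% and 1.53% in ACC1 KO, with 1.28 and 1.38 UMIs per positive cell in WT and 1.27 and 1.40 in ACC1 KO. The share of cells with Cdc45 was 0.393% and 0.634% in WT and 0.915% and 0.978% in ACC1 KO, and that with Ccne2 0.502% and 0.50% in WT and 0.806% and 0.759% in ACC1 KO. Both were higher without overlap.

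The level per positive cell lies near 1 UMI, so no change can be read from it at this depth: 31 of the 36 members had 1.2 UMIs or fewer per positive cell in every library. Pclaf stood highest, with 2.15 and 1.93 UMIs per positive cell in WT and 1.70 and 2.11 in ACC1 KO, which overlapped, while its share was 0.873% and 1.67% in WT and 2.49% and 2.68% in ACC1 KO, without overlap. Unthinned, the share of cells with Pclaf was 1.8% and 2.87% in WT and 4.1% and 5.36% in ACC1 KO. A positive cell then held 7.57 and 11 UMIs of it in WT and 5.59 and 10.4 in ACC1 KO, which overlapped and ran with the depth of the libraries. For Rrm2 the unthinned level was 3.57 and 4.52 UMIs per positive cell in WT and 3.18 and 4.73 in ACC1 KO, likewise overlapping.

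Replicating cells, with at least 5 members, were 2.71% of cells in WT 1 (95% exact binomial interval 2.25 to 3.22%), 4.2% in WT 2 (3.8 to 4.64%), 5.53% in ACC1 KO 1 (4.94 to 6.17%) and 5.38% in ACC1 KO 2 (4.89 to 5.9%). Both ACC1 KO libraries were above both WT libraries and the intervals, which cover counting error only, did not meet across genotypes. With at least 8 members the shares were 0.894% and 1.71% in WT and 2.65% and 2.71% in ACC1 KO, and with at least 3 they were 14.8% and 15.7% against 17.8% and 16.9%. Libraries of 2 against 2 cannot give an exact two-sided permutation p under 0.3333. Most cells held few members: in each library the median cell held a UMI of 1 of the 36, and 26.1% and 26.9% of cells in WT and 28.0% and 28.6% in ACC1 KO held none.

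Outside the classes set apart by division the genotypes overlapped. Of the replicating cells, 62.9% and 54.5% in WT and 47.0% and 32.8% in ACC1 KO belonged to the other classes. Resting iNKT1-like cells held a mean of 1.37 member UMIs. How many of them reached 5 members through widespread members alone was not tested. The 3 dividing classes together were 1.37% and 2.64% of iNKT cells in WT and 4.18% and 5.67% in ACC1 KO. Outside them 1.73% and 2.35% of cells were replicating in WT and 2.72% and 1.87% in ACC1 KO, which overlapped. Inside iNKT2-like cells the share was 14.4% and 23.3% in WT and 17.1% and 12.6% in ACC1 KO, and in resting iNKT1-like cells 1.25% and 1.85% against 1.79% and 1.25%; both overlapped. Cells were also drawn to 1 mix of iNKT classes in all libraries, the dividing ones included. The share was then 4.2% and 5.01% in WT and 5.0% and 3.64% in ACC1 KO. The difference between genotypes was -0.29 percentage points against 2.0 without that draw. Such a mix fixes the share of the dividing classes, so that it cannot show a difference in their frequency. Weighting the classes in place of drawing cells gave 4.33% and 5.29% in WT and 4.83% and 3.82% in ACC1 KO, which also overlapped.

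**Figure D2:**
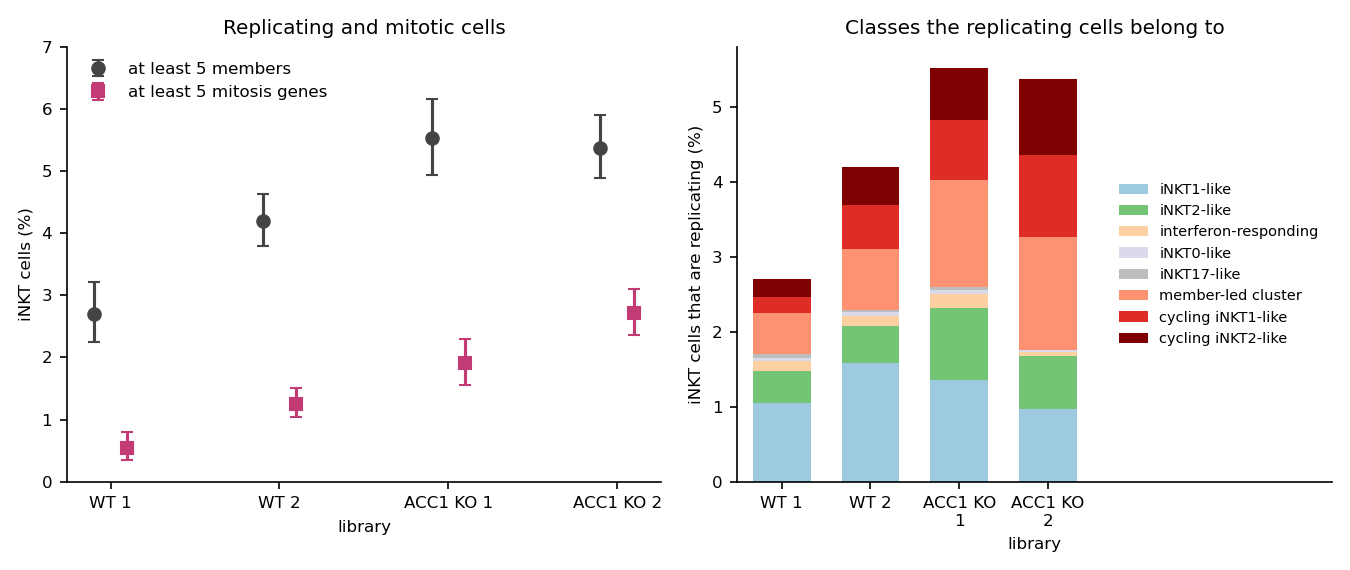
Left, percent of iNKT cells with a UMI of at least 5 members (circles) or of at least 5 mitosis genes (squares) in each library, at 2000 UMIs per cell, with 95% exact binomial intervals. Right, the replicating cells by class as percent of iNKT cells, stacked. The other classes, outside the dividing ones, hold 62.9% of the replicating cells in WT 1 and 32.8% in ACC1 KO 2.

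Members differed in how far their transcripts sit in replicating cells. Leaving each member out of its own count, a median of 29.6% of a member's UMIs came from replicating cells, from 8.64% for Cdt1 to 86.1% for Mcm10. Pclaf (80.5%), Cdc6 (78.7%), Rrm2 (72.5%) and Uhrf1 (68.7%) were the next highest, and Slbp (9.68%) and Rfc2 (11.9%) were near Cdt1. Across the 36 members this percentage ran with the log2 fold change in all iNKT cells (Pearson r 0.897, Spearman rho 0.912, given as a description, since both come from the same libraries). The 11 members with at least 40% had a median log2 fold change of 0.66 (0.29 to 1.16), and the 25 others 0.22 (-0.10 to 0.55). Inside the cycling class the same percentage did not run with the log2 fold change (r 0.058), and in iNKT2-like cells it ran the other way (r -0.445).

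**Figure D3:**
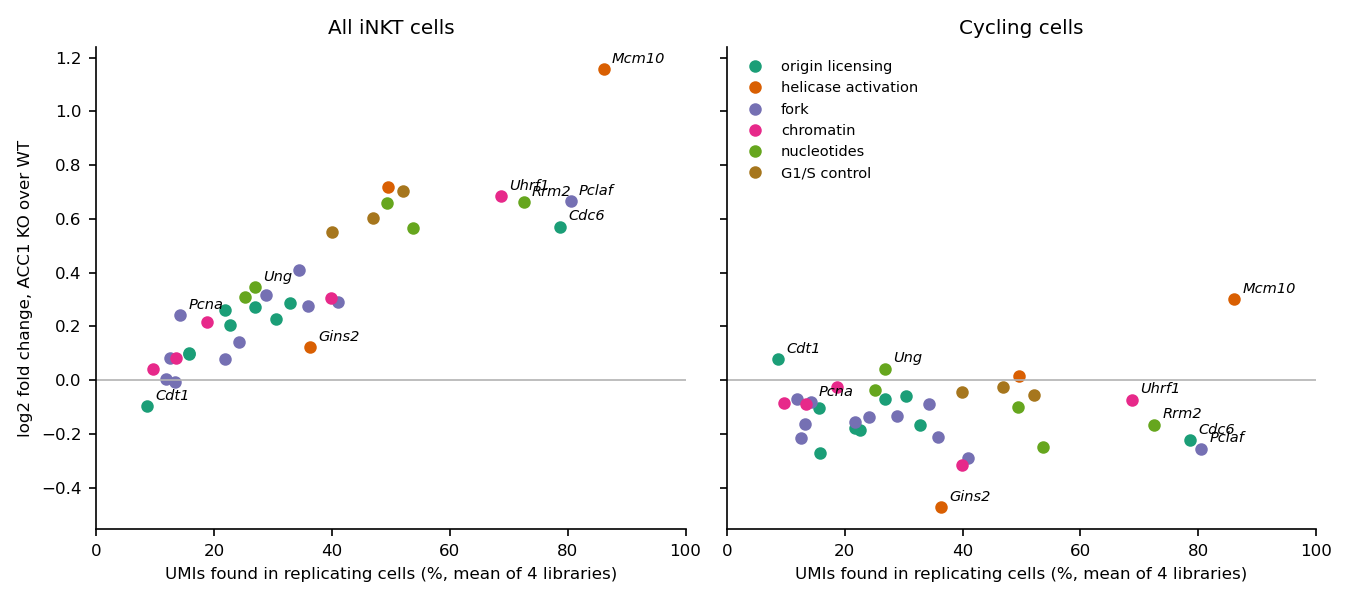
Log2 fold change of each member, ACC1 KO over WT, against the percent of its UMIs found in replicating cells (mean of 4 libraries), for all iNKT cells (left) and for the cycling class (right), coloured by role. On the left the points run from Cdt1 at -0.10 to Mcm10 at 1.16; on the right most lie below 0 with no such order.

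Levels inside replicating cells depended on where the line was drawn. With at least 5 other members, CPM was higher in both ACC1 KO libraries than in both WT libraries for 15 members and lower for 0, with a median log2 ratio of 0.17, against 13.9% and 12.8% of all genes. With at least 3 it was higher for 21 and lower for 0 (15% and 15.8% of all genes). With at least 8 it was higher for 4 and lower for 9 (14.3% and 9.73%), with a median of -0.08. Rrm2 was at 80.6 and 111 CPM in WT and 138 and 159 CPM in ACC1 KO at the line of 5, and Pcna at 302 and 375 against 408 and 394 CPM. Outside replicating cells 3 members were higher and 4 lower (10.3% and 18.8% of all genes), with a median of -0.06. The share of replicating cells that were also mitotic was 11.3% and 19.8% in WT and 23.5% and 32.1% in ACC1 KO, and its part in the levels at the line of 5 was not tested.

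Mitotic cells, with a UMI of at least 5 of 30 mitosis genes such as Mki67, Top2a and Cdk1, were 0.545% and 1.26% of iNKT cells in WT and 1.90% and 2.71% in ACC1 KO, without overlap. Within replicating cells, most members were higher in the cells that also held mitosis genes: the log2 ratio of cells without over cells with them, pooled over libraries, was below 0 for 30 of the 36 members and above 0 for 6. Ung had the highest ratio (1.26), above 0 in each library (1.34 and 0.24 in WT, 0.96 and 2.82 in ACC1 KO). Tk1 (-2.67), Rrm2 (-2.60), Pclaf (-2.49), Rrm1 (-1.69) and Tyms (-1.56) were higher in cells with mitosis genes, and so in each of the 4 libraries. Mcm2 (0.31), Mcm6 (0.28) and Mcm4 (0.16) were slightly above 0 and differed in sign between libraries. Gmnn, which accumulates after origins have fired, was at -1.08, and negative in all 4 libraries. Only 14 replicating cells of WT 1 held mitosis genes, so its ratios are the least certain. Resting iNKT1-like cells, of which 0.00462% were mitotic, were 38.7% and 37.6% of replicating cells in WT and 24.5% and 17.9% in ACC1 KO. Their part in these ratios was not tested.

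**Figure D4:**
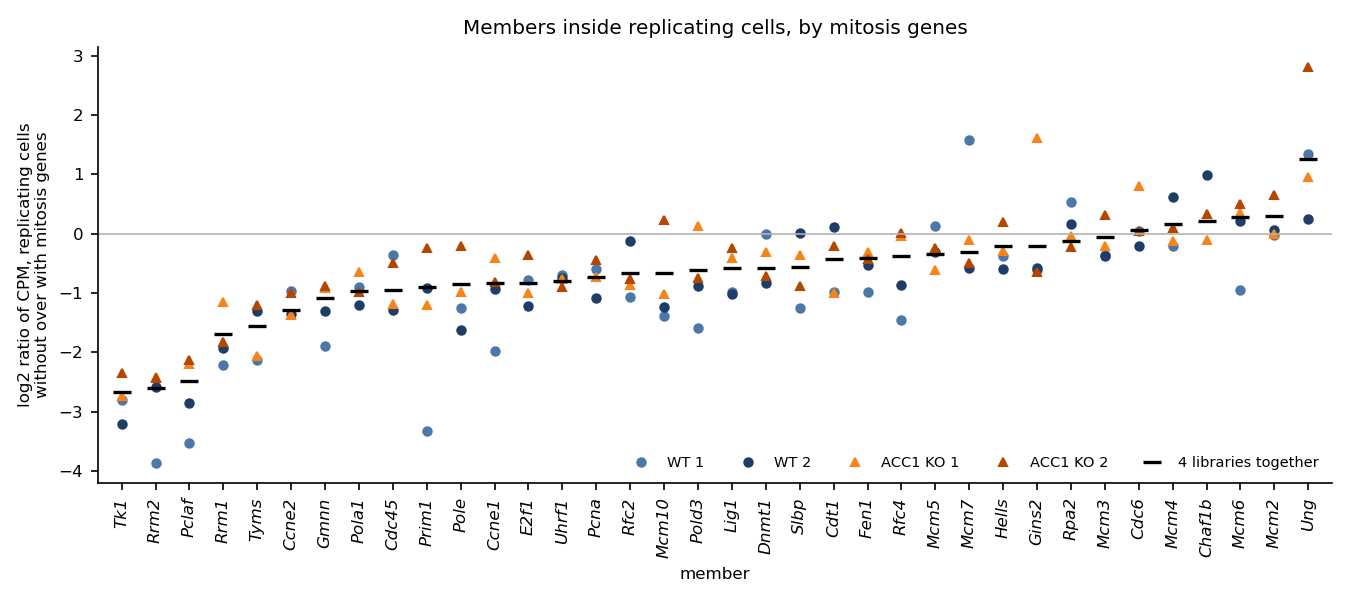
Log2 ratio of each member's CPM in replicating cells without mitosis genes over that in replicating cells with them, by library (circles WT, triangles ACC1 KO) and for the 4 libraries together (bars), ordered by the pooled ratio. Tk1, Rrm2 and Pclaf lie lowest, between -2.67 and -2.49, and Ung highest at 1.26.

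Within resting iNKT1-like cells, 35 members were tested and their median log2 fold change was -0.01, against 0.00 for all 13700 genes. The edgeR quasi-likelihood test called 0 members and 1 gene (0.00730%), with 1 member at an unadjusted p under 0.05 against 3.63% of genes, and DESeq2 called 0 members and 85 genes (0.620%). Both ACC1 KO libraries were higher for 3 members (Pclaf, Tk1 and Ccne1; 7.42% of all genes were) and lower for 6 (23% of all genes). Pclaf was at 0.914 and 0.722 CPM in WT and at 1.53 and 1.01 CPM in ACC1 KO, on 17 UMIs in WT 1. Slbp was at 104 and 121 CPM in WT and at 96.8 and 116 CPM in ACC1 KO, and Mcm6 at 63.8 and 55.9 against 59.1 and 47.2 CPM; both overlapped. The median turned to 0.10 without WT 2 and to 0.06 without ACC1 KO 2, so that it has no stable sign.

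In iNKT2-like cells the members lay lower in ACC1 KO. Of 36 members 35 had a fold change below 0, with a median of -0.37 against 0.00 for all 10343 genes, and both ACC1 KO libraries were below both WT libraries for 21 members and above for 0, against 12.5% and 13.1% of all genes. The median was -0.20 within number 1 and -0.57 within number 2, and it ran from -0.52 to -0.28 when each library was left out. The edgeR quasi-likelihood test called 0 members and 0 genes (0%), with 6 members at an unadjusted p under 0.05 against 2.46% of genes. DESeq2 called 0 members and 3 genes (0.0290%).

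Pclaf was at 79.8 and 90.2 CPM in WT and at 38.0 and 52.3 CPM in ACC1 KO iNKT2-like cells, a log2 fold change of -0.90 ± 0.23 with an unadjusted p of 0.00265 and an adjusted p of 1.0 in the edgeR quasi-likelihood test. Tk1 was at 16.2 and 21.3 CPM in WT and 9.95 and 11.5 CPM in ACC1 KO, and Rrm2 at 31.1 and 35.7 against 22.4 and 18.2 CPM. Uhrf1 was at 46.7 and 40.1 CPM in WT and 26.7 and 29.2 CPM in ACC1 KO, Ccne1 at 26.4 and 26.4 against 18.5 and 15 CPM, and Cdt1 at 32.5 and 33.6 against 22.4 and 22.5 CPM. In these 6 members, the ones with an unadjusted p under 0.05, the genotypes did not overlap, and 5 of the 6 (all but Cdt1) had a fold change above 0 over all iNKT cells. Mcm4 was the member above 0, at 58.2 and 63.2 CPM in WT and at 77.5 and 48.5 CPM in ACC1 KO.

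The iNKT2-like class itself was 3.01% and 2.15% of iNKT cells in WT and 5.54% and 5.72% in ACC1 KO. Within it, the cluster with Il4 and Izumo1r among its top genes, which held few replicating cells, had 49 of 139 cells in WT 1, 53 of 193 in WT 2, 54 of 310 in ACC1 KO 1 and 157 of 445 in ACC1 KO 2. In the other cluster, led by Igfbp4 and Tesc, 22.2% and 30% of cells were replicating in WT and 19.1% and 17.4% in ACC1 KO. These shares did not overlap, but their exact binomial intervals did. The intervals were 14.1 to 32.2% in WT 1 and 22.6 to 38.3% in WT 2. They were 14.5 to 24.5% in ACC1 KO 1 and 13.2 to 22.2% in ACC1 KO 2. The interval of WT 1 held both ACC1 KO shares, so that its gap from them lies within counting error. In the whole iNKT2-like class the 27 mitosis genes tested had a median of -0.36, with 10 lower without overlap, against 12.5% of all 10343 genes. The part of the mix of clusters in the members' levels was not tested.

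**Figure D5:**
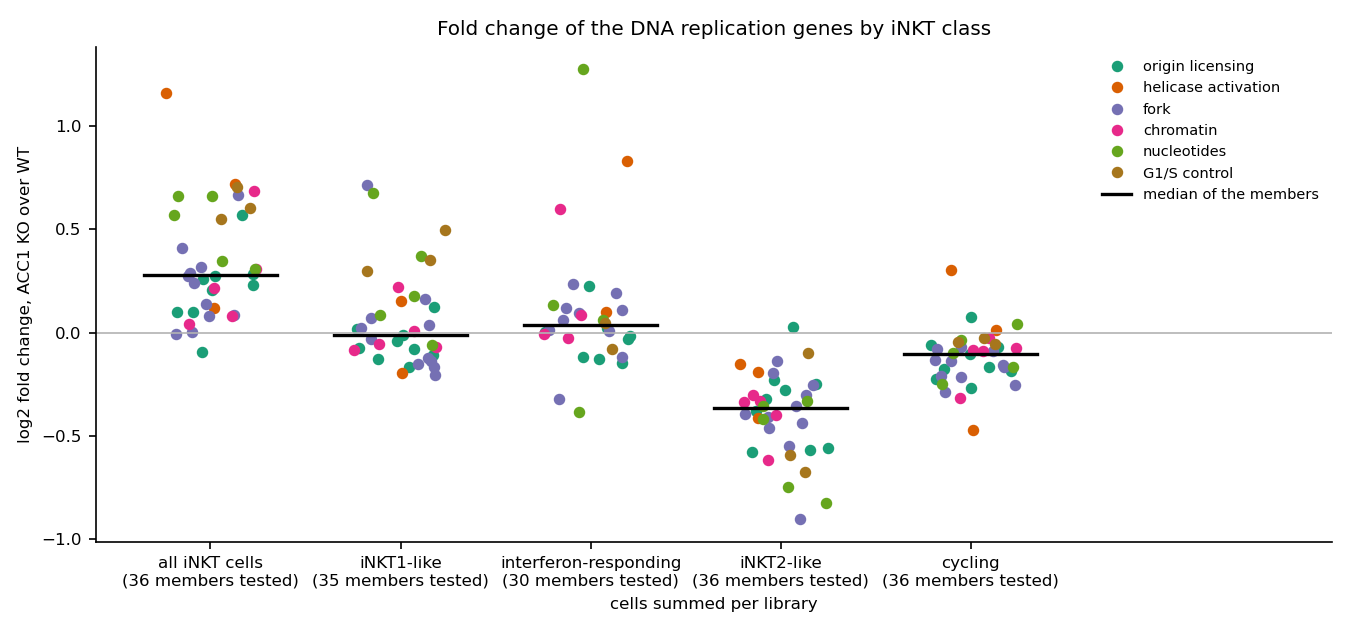
Log2 fold change, ACC1 KO over WT, of the members tested in the sums of all iNKT cells and of the 4 classes tested; each point is 1 member, coloured by role, and bars are medians. The medians are 0.28 in all iNKT cells, -0.01, 0.04 and -0.37 in iNKT1-like, interferon-responding and iNKT2-like cells, and -0.10 in cycling cells.

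In interferon-responding cells, which express Ifit and Isg genes, 30 members were tested with a median of 0.04 (all 10396 genes 0.00). The edgeR quasi-likelihood test called 0 members and 2 genes (0.0192%), DESeq2 called 0 members and 13 genes (0.125%), and 1 member, Tyms, had an unadjusted p under 0.05 (3.68% of genes). Tyms was at 2.16 and 2.33 CPM in WT and at 3.81 and 6.35 CPM in ACC1 KO, on 4 UMIs in WT 1. Hells, a chromatin remodeller needed for DNA methylation, was at 5.40 and 9.75 CPM in WT and 13.3 and 10.3 CPM in ACC1 KO. These were the 2 members higher without overlap (9.01% of all genes), and 2 were lower (21.0%). The median was 0.13 when WT 2 was left out, and 0.08 and 0.17 when ACC1 KO 1 and ACC1 KO 2 were.

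In cycling cells, the 3 dividing classes together, the members lay slightly lower in ACC1 KO although such cells were more frequent. The median log2 fold change was -0.10 (all 10400 genes 0.00), -0.10 within number 1 and -0.19 within number 2, and 13 members were lower without overlap and 1, Mcm10, higher, against 15.4% and 12.8% of all genes. The edgeR quasi-likelihood test called 0 members and 6 genes (0.0577%), 0 members had an unadjusted p under 0.05 (2.59% of genes), and DESeq2 called 0 members and 10 genes (0.0962%). Pclaf was at 635 and 626 CPM in WT and at 486 and 550 CPM in ACC1 KO, Lig1, which joins Okazaki fragments, at 194 and 204 against 149 and 171 CPM, and Hells at 163 and 165 against 121 and 138 CPM. Mcm10 was at 27.2 and 27.4 CPM in WT and 36.9 and 30.4 CPM in ACC1 KO. Without the member-led cluster the median was -0.18, with 15 lower and 0 higher without overlap, against 13.6% and 17.7% of the 9719 genes then tested, and without ACC1 KO 1 it was -0.16. WT 1 gave 63 cycling cells against 238 to 442 in the other libraries.

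Of the other genes of cell division, in 5 lists, none was called over all iNKT cells. Of all genes tested there, 11.3% were higher without overlap and 19.6% lower. Genes of the lists that lay lower without overlap are not counted below. Among 42 other origin and fork genes the median was 0.16 and 18 were higher without overlap; the smallest unadjusted p were those of Ticrr (0.92 ± 0.26), needed to fire origins, and Dbf4 (0.40 ± 0.14), the activator of Cdc7. Among 15 other chromatin and nucleotide genes the median was 0.26 with 6 higher, led by Cdca7 (0.62 ± 0.17), a partner of Hells, and Exo1 (0.64 ± 0.30). Among 23 genes of E2F and G1 control it was 0.24 with 12 higher, led by E2f2 (0.85 ± 0.22) and Fbxo5 (0.49 ± 0.16), which restrains the anaphase-promoting complex. Among 15 checkpoint genes it was 0.10 with 6 higher; Chek1 was at 0.69 ± 0.23, and Fanci, of the Fanconi anaemia pathway, was at -0.72 ± 0.20, with 7.65 and 8.02 CPM in WT and 4.12 and 5.04 CPM in ACC1 KO. Among the 30 mitosis genes the median was 0.89 and 28 were higher without overlap, led by Aurkb (1.01 ± 0.28) and Cenpa (0.46 ± 0.14). The edgeR quasi-likelihood test gave all of them an adjusted p above 0.05.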

How the data were processed

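Per the labels, mRNA of sorted thymic iNKT cells was captured with the 10x Genomics 3′ kit, version 3.1, in 2 WT and 2 ACC1 KO libraries. The authors deposited, for each library, UMI counts per gene and cell barcode, and the submitters' processing notes name Cell Ranger 7.0.0 and mm10; the annotation and intronic-read setting: not given in the sources used here. The members and all gene lists were chosen with earlier results of these data known.

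Barcodes with at least 500 genes, 1000 UMIs and at most 10% mitochondrial UMIs were kept. Doublets, simulated within each library at a rate of 0.8% per 1000 cells, were removed (4.36 to 7.91% of cells). The remaining cells were clustered (scanpy 1.11.5, 2000 variable genes less the 5 members among them, 30 components, Leiden resolution 1), giving 24 clusters. A cluster was named from marker lists, with score limits set after seeing the data; a name ending in -like says no more than this, and B cell, thymocyte and myeloid clusters were left out. Counts of all iNKT cells, and of any class with 50 or more cells in each of the libraries, were added up by library, which left iNKT0-like (45 cells in WT 2) and iNKT17-like cells untested. Sums were tested with edgeR 4.0.16 (quasi-likelihood, TMM scaling, filterByExpr, no covariate, Benjamini-Hochberg adjustment over all genes tested, threshold 0.05). The procedure was tested on simulated data.

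A fold change is log2 of ACC1 KO over WT with its standard error; CPM is scaled to 1000000 UMIs of the summed cells, and a gene is higher without overlap when both ACC1 KO libraries exceed both WT libraries. Shares of cells, levels per positive cell and replicating cells used cells thinned to 2000 UMIs, which left out 31, 24, 130 and 21 shallower iNKT cells (WT 1 and 2, then ACC1 KO 1 and 2). A replicating cell had a UMI of at least 5 members, and for a member's own level of at least 5 others. Values in every library are given for the 12 members with the smallest unadjusted p and the 2 of each role with the highest mean CPM, and for others chosen after their values were seen; of each other list the 2 genes with the smallest p are named.

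Same-numbered libraries deviated together from their group means (r = 0.817 over 11829 genes), and Xist and depth go with the number. The labels do not say what a number shares, and 2 pairs cannot settle it. Alternatives were DESeq2 1.42.0 and its size factors, other count and cell filters, doublets kept, other clusterings, other depths and thresholds, each library left out, the replicate block and an equal mix of classes; 2 more were added after seeing the data, leaving out the member-led cluster and DESeq2 size factors within classes.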

Additional observations from a re-analysis of the deposited data

Results flagged for a closer look

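Several members had fold changes of opposite sign in different classes, with every library of a class on the same side; none of these differences was tested. Pclaf was at 0.71 in iNKT1-like cells, at -0.90 in iNKT2-like cells and at -0.25 in cycling cells, on the log2 scale. Tk1 was at 0.68 in iNKT1-like and -0.82 in iNKT2-like cells, and Ccne1 at 0.50 and -0.68. Tyms was at -0.42 in iNKT2-like and 1.27 in interferon-responding cells, and Hells at -0.31 in cycling and 0.60 in interferon-responding cells.

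Outside the iNKT cells, a cluster of dividing thymocytes, which no comparison used, held 69.2% and 72.7% replicating cells in WT 1 and WT 2 (52 and 11 cells) and 92.4% and 81.0% in ACC1 KO 1 and 2 (92 and 21 cells), so that the lowest ACC1 KO library lay above the highest WT library.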

How the results depend on the processing

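With every library given the same mix of iNKT classes, results over all iNKT cells turned: the members' median log2 fold change was -0.22 with 0 higher without overlap, the median share part -0.10, the difference in replicating cells -0.29 percentage points, and 2 genes were called. Of the members given by library, Mcm6 was then at -0.16, Mcm7 -0.10, Cdc6 -0.32, Cdc45 -0.22, Gins2 -0.46, Pcna -0.0056, Pclaf -0.38, Rfc2 -0.18, Pola1 -0.24, Uhrf1 -0.28, Dnmt1 -0.17, Slbp -0.049, Tyms -0.25, Rrm1 -0.30, Rrm2 -0.47 and Ccne1 -0.26. Rfc2 was at -0.054 with every barcode.

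Called genes over all iNKT cells numbered 108 with DESeq2 and 361 without a count filter (5 of them members). The share of all genes tested without that filter is not given, so that the 5 carry no reading on the members. At a mean of 10 CPM or more, and with every barcode, 0 were called. The filter at 10 CPM left 10 members higher without overlap, and the share of all genes there is not given. In iNKT1-like, iNKT2-like, interferon-responding and cycling cells, DESeq2 called 85, 3, 13 and 10 genes, and 212, 25, 80 and 34 were called without a count filter. In interferon-responding cells 1 gene was called with DESeq2 size factors, 5 with doublets kept, 1 at Leiden resolution 2 and 1 with members among the variable genes, where the median was -0.034. In cycling cells that clustering gave a median of -0.024, and leaving out the member-led cluster gave 3 genes and -0.18. In iNKT1-like cells the median was 0.011 at Leiden resolution 0.5.

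With the replicate block, which treats the number in the labels as a pairing, 1468, 1284, 96, 543 and 97 genes were called in all iNKT, iNKT1-like, iNKT2-like, interferon-responding and cycling cells (9.98, 9.37, 0.928, 5.22 and 0.933% of genes), among them 18, 1, 2, 1 and 0 members; the cause was not tested.

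Leaving out each library gave 3 to 57, 2 to 13, 1 to 9, 7 to 34 and 8 to 32 called genes in those 5 sums, and 0 members in each. The median ran from 0.14 to 0.50, -0.081 to 0.099, -0.52 to -0.28, 0.037 to 0.17 and -0.16 to -0.11. Members higher without overlap over all iNKT cells ran from 20 to 28. For any gene 3 libraries overlap less readily than 4, and the share of all genes is not given here. These counts therefore carry no reading on the members. The level part ran from 0.0070 to 0.026, the share part from 0.13 to 0.23 and the difference in replicating cells from 1.25 to 2.75 points. Gins2 ran from -0.19 to 0.50, Rfc2 from -0.043 to 0.065, Dnmt1 from -0.15 to 0.29 and Slbp from -0.12 to 0.24. The remaining 173 values of main results and 198 of single members kept their side. Depth limits the level per positive cell, near 1 UMI, and WT 1 with 63 cycling cells.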

Other observations

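Replicating cells held more cells with a UMI of Zbtb16 than other iNKT cells did in each library, at 29.0%, 33.1%, 28.5% and 34.7% (WT 1 and 2, then ACC1 KO 1 and 2, here and below) against 23.5%, 19.4%, 18.9% and 18.4%. Plac8, an iNKT2 marker, was in 11.3%, 11.1%, 23.8% and 17.2% of replicating cells against 5.22%, 1.75%, 12.3% and 5.38% of others. Nkg7, an iNKT1 marker, went the other way in each library, at 67.7%, 72.5%, 57.0% and 57.7% against 82.7%, 88.5%, 76.9% and 78%. Tbx21, Klrb1c and Il2rb, further iNKT1 markers, did so too. The iNKT2 markers were not uniform. Il4 was nearly equal in WT 1 (12.1% against 11.8%) and higher in the other libraries. Gata3 differed in sign, at 21.0%, 23.5%, 18.9% and 22.7% of replicating cells against 22.7%, 20.6%, 20.3% and 21.2% of others.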
